A study of Mus musculus with 20 samples.

Results

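Btbd17 and B630019K06Rik are genes whose mean expression over 20 mouse breast tumors was carried by a single, far outlying tumor. The 2 genes, out of 43346 in the deposited count table, were chosen by their raw counts, so the counts themselves are given as a description with no test. The outlying tumor was Hi 8 for Btbd17 and Lo 3 for B630019K06Rik.

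The 20 tumors came from 20 female [BALB/c-neuT x FVB/J] F1 mice, 1 tumor from each. Every mouse carried the activated rat Her2/neu oncogene as a hemizygous transgene from a BALB/c-neuT father, and wildtype FVB/J mothers gave the other parental genome. The tumors arose spontaneously and were untreated. Polyadenylated RNA was sequenced from small frozen pieces, each of which holds tumor cells together with stroma, blood vessels and immune cells. Sample names divide the tumors into 9 Lo and 11 Hi, whose meaning the labels do not state, and no normal mammary tissue was used here. Total counts ranged from 38765682 to 65465755 per tumor (median 49881778), with 52692036 in Hi 8 and 57411377 in Lo 3, so neither outlying library stood at an end of the depth range. Epcam, a cell surface adhesion molecule of epithelium, had 54196 counts in Hi 8, 65942 in Lo 3 and 38178 to 76553 in the other tumors.

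Btbd17 encodes a member of the BTB domain family. The BTB domain is a fold through which proteins bind one another, and many BTB proteins serve as adaptors of ubiquitin ligases or as transcriptional regulators. Lgals3bp, a secreted glycoprotein that binds galectins, also carries a BTB domain. B630019K06Rik is a mouse gene with no established function. Its closest relative by sequence is Fbxl17, an F-box protein that recognises substrates for a ubiquitin ligase and is known for removing wrongly paired BTB proteins.

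Btbd17 (ENSMUSG00000000202) lies on the minus strand of chr11:114791217-114795945 (mm10), where GENCODE vM21 lists 7 transcripts of 2 to 3 exons. The gene boundaries of GENCODE and of the count table were the same. B630019K06Rik (ENSMUSG00000052364) lies on the plus strand of chrX:8892382-8894964 as a single exon of 2583 bases. GENCODE lists it as protein coding with 999 coding bases, while RefSeq lists it as a transcribed pseudogene.

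The sequence of B630019K06Rik is shown because a gene that resembles another may share its reads. The search used blastn in its default mode, which seeks highly similar sequences and can miss more distant relatives. Among 141767 GENCODE transcripts, it found no other gene similar to the 1717-base coding transcript of Btbd17, and 1 similar to B630019K06Rik. This was Fbxl17 (chr17:63057452-63500017, minus strand, up to 9 exons). The alignment covered 1003 positions at 80.6% identity, and began at the first coding base of each gene. Over the first 141 coding bases the sequences differed at 16 positions, shown here in capitals and everything else in lower case, 5′ to 3′:
B630019K06Rik: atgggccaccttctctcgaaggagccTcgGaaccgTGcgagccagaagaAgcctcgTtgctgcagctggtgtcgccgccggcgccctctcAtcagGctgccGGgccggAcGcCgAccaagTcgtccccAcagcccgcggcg
Fbxl17: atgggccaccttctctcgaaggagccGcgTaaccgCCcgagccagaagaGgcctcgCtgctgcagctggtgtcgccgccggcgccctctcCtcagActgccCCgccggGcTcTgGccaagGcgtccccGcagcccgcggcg
The longest run of identical bases that B630019K06Rik shared with a transcript of another gene was 60 bases, again with Fbxl17, and the reads were 100 bases long. For Btbd17 the longest such run was 24 bases. In these annotated transcripts, no stretch as long as a read was therefore identical between either gene and another.

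The count of Btbd17 in Hi 8 was 7627 (95% exact Poisson interval 7457 to 7800). Among the other 10 Hi tumors, the count was 58 in Hi 1, 55 in Hi 2, 36 in Hi 3, 73 in Hi 4, 21 in Hi 5, 48 in Hi 6, 32 in Hi 7, 66 in Hi 9, 205 in Hi 10 and 80 in Hi 11. Among the 9 Lo tumors, it was 39 in Lo 1, 28 in Lo 2, 33 in Lo 3, 38 in Lo 4, 57 in Lo 6, 40 in Lo 7, 56 in Lo 8, 43 in Lo 9 and 42 in Lo 11. Hi 8 thus stood alone and Hi 10 was a distant second.

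Scaled to library size as CPM (counts as a share of the library, with TMM factors), Btbd17 was 147 in Hi 8 and 1.05 ± 0.621 (SD, n = 19) in the other tumors. The next values were 3.33 CPM in Hi 10 and 1.52 CPM in Hi 11, and the lowest was 0.408 CPM in Hi 5. Hi 8 was 44.1-fold over the second-highest tumor and 182-fold over the median of the other 19. The interval of counting error on the 205 counts of Hi 10 was 178 to 235, which does not reach the 80 counts of Hi 11 (63 to 100). Counting intervals cover counting error only and not the spread between tumors, and the reads carry no molecular identifiers.

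Hi 8 held 87.9% of all Btbd17 reads in the series. The mean count was 433.85 over 20 tumors and 55.26 without Hi 8, and neither mean describes most of the tumors, whose median was 43. Per kilobase of listed gene length (RPKM), Btbd17 reached 46.0 in Hi 8 against a median of 0.253 elsewhere. It ranked 1080 among 15398 expressed genes in Hi 8, and at a median rank of 15084 in the other tumors. A gene near the bottom of the expressed range in 19 tumors was among the top 7.01% in Hi 8.

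The count of B630019K06Rik in Lo 3 was 27722 (95% exact Poisson interval 27397 to 28050). Among the other 8 Lo tumors, the count was 256 in Lo 1, 227 in Lo 2, 214 in Lo 4, 205 in Lo 6, 209 in Lo 7, 370 in Lo 8, 309 in Lo 9 and 272 in Lo 11. Among the 11 Hi tumors, it was 346 in Hi 1, 341 in Hi 2, 325 in Hi 3, 337 in Hi 4, 214 in Hi 5, 200 in Hi 6, 305 in Hi 7, 379 in Hi 8, 353 in Hi 9, 407 in Hi 10 and 240 in Hi 11. Outside Lo 3 the gene was detected in every tumor within a narrow band, and Lo and Hi tumors overlapped.

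On the CPM scale, B630019K06Rik was 520 in Lo 3 and 5.64 ± 1.08 (SD, n = 19) in the other tumors, with a range of 4.16 to 7.28. Lo 3 was 71.3-fold over the second-highest tumor, Hi 8, and 99.5-fold over the median. The tumor held 83.4% of the gene's reads in the series, and the mean count fell from 1661.5 over 20 tumors to 289.9 over the other 19. In RPKM, the gene was at 201 in Lo 3 and at a median of 2.02 elsewhere. It ranked 173 of 15398 expressed genes in Lo 3, within the top 1.12%, against a median rank of 11705 in the other tumors.

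The genes differed in their spread outside the outlying tumor. The coefficient of variation over the other 19 tumors was 59.2% for Btbd17 and 19.1% for B630019K06Rik, in CPM. The highest of these 19 tumors was 8.16-fold over the lowest for Btbd17 and 1.75-fold for B630019K06Rik. The Btbd17 values rest on Hi 10: without it the coefficient of variation was 32.0% (n = 18) and the highest tumor was 3.72-fold over the lowest. Neither gene was raised to a like extent in the outlying tumor of the other. In Lo 3, Btbd17 had 33 counts and ranked 19 of 20, and in Hi 8, B630019K06Rik had 379 counts and ranked 2 of 20 at 7.28 CPM, next to 7.23 CPM in Lo 8.

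**Figure D1:**
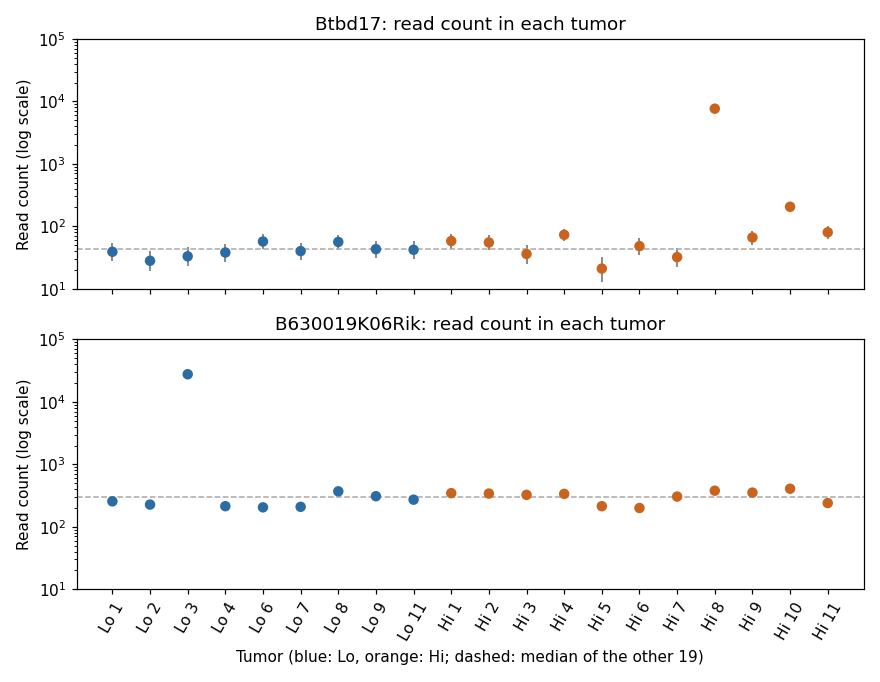
Read counts of Btbd17 (top) and B630019K06Rik (bottom) on a log scale in each of the 20 tumors, Lo in blue and Hi in orange, with 95% exact Poisson intervals as bars and the median of the other 19 tumors dashed. Hi 8 stands at 7627 for Btbd17 and Lo 3 at 27722 for B630019K06Rik, while every other tumor has at most 205 and 407 counts.

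Fbxl17, the relative of B630019K06Rik, did not rise with it. Lo 3 had 1650 Fbxl17 counts, and the other 19 tumors had between 966 and 2381 (median 1631). On the log2 CPM scale, Lo 3 was 0.08 below the median of the others (difference -0.08), against a spread of 0.143 (SD over the other 19), and ranked 13 of 20. At 5.6 RPKM, Fbxl17 was below B630019K06Rik (201 RPKM) in Lo 3, and at a median of 5.91 RPKM it was above it (2.02 RPKM) in the other tumors.

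How often a gene stood out in a single tumor was counted over the whole table. Of 15424 genes with at least 100 counts in their highest tumor, 67 were at least 4-fold over the second-highest tumor, which is 0.434% of those tested. Both genes met this by construction, since they were selected on the same values. By size of the gap, B630019K06Rik was number 5 and Btbd17 number 12 of the 15424. The 67 genes were unevenly spread over the tumors: Hi 3 held 28, Hi 8 held 11, Hi 1 held 9 and Hi 4 held 5, while 5 tumors held none. Lo 3 held 1, which was B630019K06Rik itself.

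**Figure D2:**
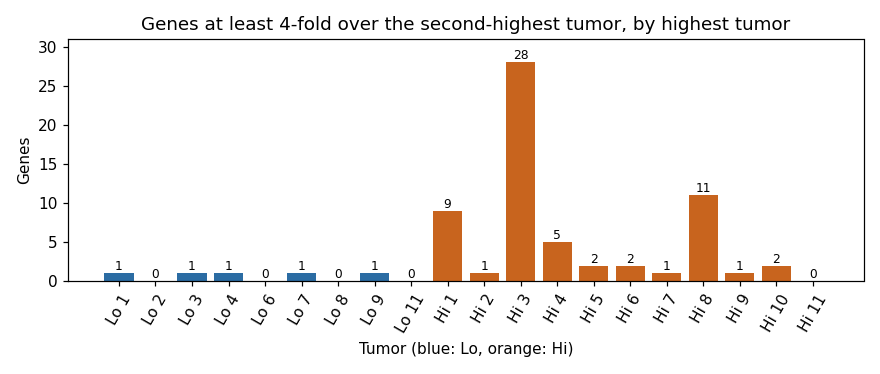
Number of genes at least 4-fold over the second-highest tumor (y axis), counted in the tumor where each is highest (x axis; Lo in blue, Hi in orange), of 67 in all. Hi 8, the outlying tumor of Btbd17, held 11 and Lo 3, that of B630019K06Rik, held 1.

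Of the 11 genes that stood out in Hi 8, Btbd17 had the largest gap to the second-highest tumor. Klk6, a secreted serine protease of the kallikrein family, had 3083 counts in Hi 8 and 2 to 259 in the others. Klk8, a second kallikrein gene on chromosome 7, had 663 counts against 17 to 101. Mmp13, a collagenase, had 2407 counts against 102 to 486. Muc4, a membrane mucin that binds Erbb2, had 305 counts against 3 to 67. All 4 were, like Btbd17, at least 4-fold over the second-highest tumor.

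Rsph6a, a component of the radial spokes of motile axonemes, had 100 counts in Hi 8 and at most 5 elsewhere. Gabbr2, a subunit of the GABA type B receptor, had 255 counts against at most 33, and Cel, a lipase of pancreatic juice and milk, had 124 against at most 28. Cyp2f2, a cytochrome P450 enzyme, had 629 counts against at most 143, and Wfdc3, of the whey acidic protein domain family, had 774 against at most 182. On the log2 CPM scale with a prior count of 2, the excess of Hi 8 over the median of the other 19 was 7.44 for Btbd17 and 7.10 for Klk6. For the other 8 named genes it lay between 2.79 (Cel) and 4.68 (Rsph6a). In RPKM, Btbd17 at 46.0 and Klk6 at 40.7 were the most abundant of the 10 in Hi 8, followed by Mmp13 at 17.3.

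**Figure D3:**
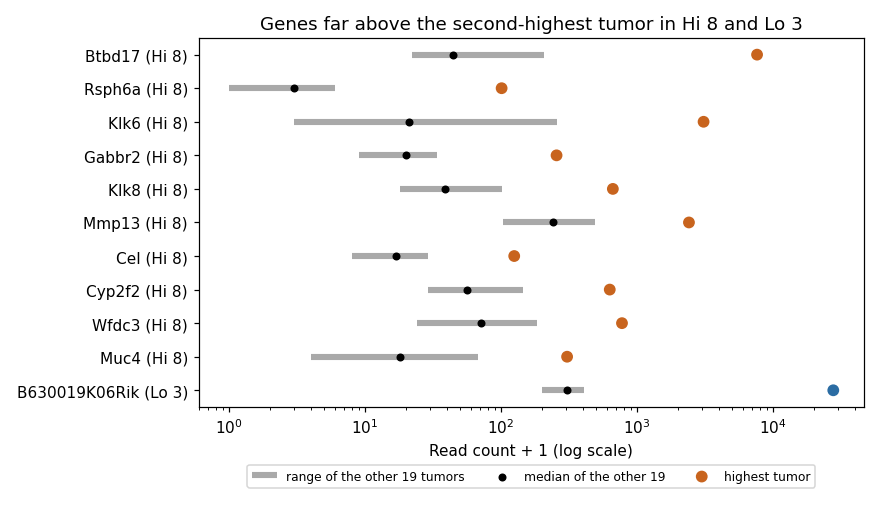
Read count plus 1 on a log scale for 10 of the 11 genes that stood out in Hi 8 (orange) and for the gene that stood out in Lo 3 (blue), with the range of the other 19 tumors as a grey bar and their median as a black point. Btbd17 (7627 counts in Hi 8) and B630019K06Rik (27722 in Lo 3) are farthest from their grey bars.

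The genes next to each outlying gene were examined to see whether the surrounding region was raised as well. Differences are the log2 CPM of the outlying tumor minus the median of the other 19. The next genes on either side of Btbd17 are Kif19a, a kinesin gene that ends 478 bases away, and Gpr142, a G protein-coupled receptor gene that begins 2979 bases away, both on the opposite strand. Kif19a had 64 counts in Hi 8 and 13 to 76 in the others, a difference of 0.66 against a spread of 0.60 (SD over the other 19). Gpr142 had 26 counts against 4 to 35, a difference of 0.88 against a spread of 0.684. Both ranked 2 of 20 and lay within the range of the other tumors. RefSeq draws Btbd17 from 114790669 to 114801916 on chromosome 11 (GRCm38), which overlaps Kif19a and Gpr142. The strand setting of the read counting was not given in the sources used here, so reads of overlapping transcripts could not be assigned by strand.

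Within 500 kb of Btbd17, the table listed 31 other genes, of which 30 had reads and 16 had a mean of at least 1 CPM. Their median difference in Hi 8 was 0.20, against 0.05 over the 1304 genes of chromosome 11 and 0.01 over all 15397 genes at that level. The same median in the other 19 tumors ran from -0.27 to 0.22, so Hi 8 ranked 2 of 20 and did not stand apart. The highest values were 0.74 for Cd300lb, a receptor gene of myeloid cells, 0.68 for Fads6, of the fatty acid desaturase family, and 0.57 for Ttyh2, a tweety family membrane protein gene. The lowest were -0.19 for Rab37, a small GTPase of vesicle transport, -0.06 for AF251705 and 0.00 for Nat9. All 16 were within 1 log2 unit of the other tumors, where Btbd17 was at 7.44.

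Hi 8 had the highest level of 20 tumors at 3 of the 16 neighbors of Btbd17, namely Ttyh2, Slc9a3r1 and Tmem104, and the lowest at 0. Over all genes with a mean of at least 1 CPM, Hi 8 was highest at 6.97% and lowest at 5.46%. Ttyh2 had 976 counts in Hi 8 and 441 to 1126 in the others, a difference of 0.57 with a spread of 0.301. Tmem104 had 983 against 543 to 1087, a difference of 0.40 with a spread of 0.165. Slc9a3r1, a scaffold of the apical membrane also known as NHERF1, had 6797 counts against 3534 to 7514, a difference of 0.29 with a spread of 0.134. These shifts were larger than the spread over the other 19 tumors but small beside that of Btbd17.

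The region of B630019K06Rik holds few expressed genes. The next gene on the left with reads, Gm5751, had 29 counts in Lo 3 and 7 to 46 in the others, a difference of 0.40 against a spread of 0.577. The next on the right, Gm14504, had 13 against 1 to 86, a difference of 1.04 against a spread of 1.03, and ranked 3 of 20. Both had a mean below 1 CPM. Within 500 kb, the table listed 44 other genes, of which 23 had reads and 2 had a mean of at least 1 CPM. Xk, a membrane protein gene named for a blood group antigen, had 150 counts in Lo 3 against a median of 149, a difference of -0.02. Gm6829 had 112 counts against a median of 90, a difference of 0.27 with a spread of 0.267. Lo 3 was the highest tumor at 0 of these 2 genes and the lowest at 0, where over all genes it was highest at 4.83% and lowest at 6.26%. The median difference over the 488 genes of chromosome X was 0.06 in Lo 3.

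Over a wider window of 5 Mb on either side, 129 genes near Btbd17 and 55 near B630019K06Rik had a mean of at least 1 CPM. Near Btbd17 the differences in Hi 8 ran from -1.34 (Sap30bpos) to 0.86 (Kcnj2), and 0 genes were above 1. Near B630019K06Rik the differences in Lo 3 ran from -0.80 (Srpx) to 0.43 (Med14), and 0 genes were above 1. Among all genes, 1.52% were above 1 in Hi 8 and 0.325% in Lo 3. No other gene measured within this window at that level was thus above 1, but these shares are low, so few or none would be looked for here. The nearest such gene to B630019K06Rik was Xk, 378 kb away. The adjacent Gm14504, at 1.04 in Lo 3, was below that level. Whether the excess was limited to the single gene was not tested. DNA copy number was not analysed here.

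**Figure D4:**
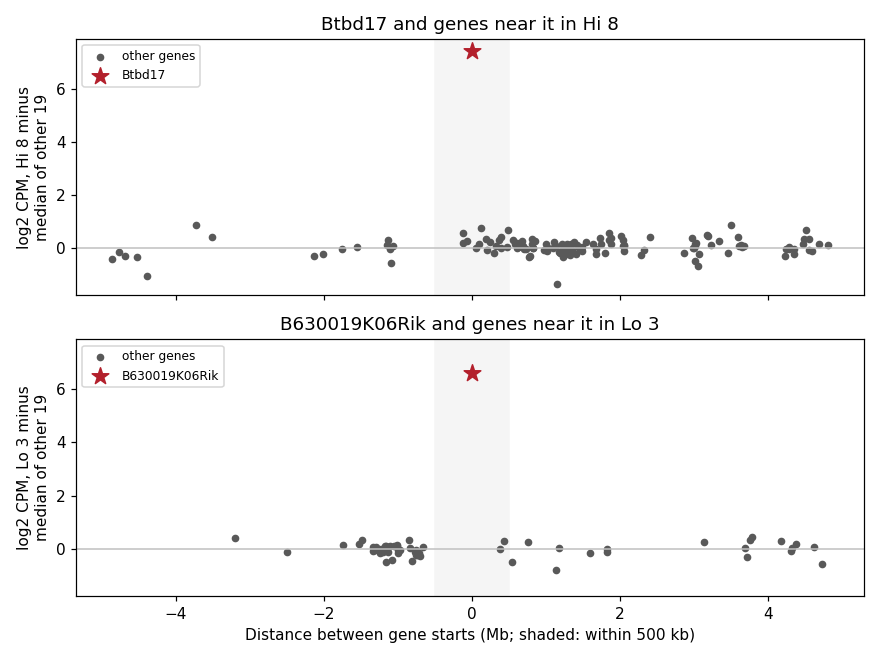
Log2 CPM of Hi 8 (top) or Lo 3 (bottom) minus the median of the other 19 tumors (y axis) for genes with a mean of at least 1 CPM, by distance of the gene start from Btbd17 or B630019K06Rik (x axis, Mb). Each grey point is a gene, the star is the outlying gene (7.44 and 6.63) and the shaded band marks 500 kb. No other gene shown within 5 Mb exceeds 0.86 (top) or 0.43 (bottom).

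The genes whose levels most resembled each outlying gene were ranked by Pearson's r of log2 CPM among genes with a mean of at least 1 CPM. A single far tumor can set r over 20 tumors, and all points share the same libraries, so r is a description. Over 20 tumors, the 5 genes most like Btbd17 were Rfxank (r = 0.875), Nr2c2ap (0.850), Klk8 (0.818), St3gal1 (0.796) and Ppp1r2 (0.771). All 5 were highest in Hi 8. Spearman's rho, on which a far tumor has less weight, was 0.14 for Rfxank, 0.137 for Nr2c2ap, 0.277 for Klk8, 0.541 for St3gal1 and 0.182 for Ppp1r2. Without Hi 8, r was 0.469 for St3gal1 and between 0.0967 and 0.201 for the other 4. Rfxank, a regulator of MHC class II genes, and Nr2c2ap overlap on chromosome 8 and may share reads. Rfxank had 3899 counts in Hi 8 and at most 3340 elsewhere. St3gal1, a sialyltransferase, had 3260 counts in Hi 8 and at most 1695 elsewhere, which after Klk8 was the widest separation of the 5. Over the 19 tumors without Hi 8, the nearest genes were Acan (0.745), Sp3os (0.741), Odf3l1 (0.709), Adhfe1 (0.70) and Scamp5 (0.697), and none of the first 5 was among them. Acan, which encodes the cartilage proteoglycan aggrecan, ranked 2 in Hi 8 with 750 counts against a median of 199, a difference of 2.03.

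For B630019K06Rik, the nearest gene over 20 tumors was Adamtsl5 (r = 0.861), a matrix protein that binds fibrillin. It had 742 counts in Lo 3 and at most 219 elsewhere, a difference of 2.61. It was followed by Snx16 (0.662), Gm15564 (0.661), Gm16240 (0.652) and Tfb1m (0.643), all highest in Lo 3 by log2 CPM. Spearman's rho was 0.504 for Adamtsl5, 0.31 for Snx16, 0.29 for Gm15564, 0.618 for Gm16240 and 0.114 for Tfb1m. Without Lo 3, r was 0.36 for Adamtsl5, 0.28 for Snx16, 0.272 for Gm15564, 0.515 for Gm16240 and 0.0242 for Tfb1m. Gm15564 had 33696 counts in Lo 3 and at most 18382 elsewhere. Over the 19 tumors without Lo 3, the nearest genes were Trpm3 (0.871), Lphn1 (0.855), Nxnl2 (0.836), Fam160b1 (0.827) and Gm10644 (0.816). Lphn1 and Gm10644 overlap on chromosome 8. In Lo 3 these 5 genes had differences from -0.52 (Nxnl2) to 0.20 (Gm10644).

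Markers of cell types and cell states were read in the same tumors as the mean over each list of log2 CPM minus the median of the 20 tumors. Of 14 lists, Hi 8 was highest in 1 and lowest in 1. It was highest for alveolar milk protein genes, at 2.46 where the other tumors ran from -1.86 to 1.75, and 4 of the 6 genes were highest in Hi 8. Csn2, which encodes beta-casein, had 214685 counts in Hi 8 and 2477 to 95143 in the others. Wap, the whey acidic protein gene, had 1321 counts against 14 to 360, while Csn3 had 380785 against 282907 to 568430. Hi 8 was lowest for proliferation genes, at -0.82 where the others ran from -0.53 to 0.26, and 6 of the 7 genes were lowest there. In these bulk pieces, fewer cells of a type and less RNA per cell cannot be told apart. Mki67, a marker of cycling cells, had 7075 counts in Hi 8 and 10488 to 22445 in the others.

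Hi 8 also ranked 2 of 20 for basal and keratinocyte genes, at 2.14 where the others ran from -0.85 to 3.87. Krt5, a keratin of the basal layer, had 366 counts in Hi 8 against a median of 21. Krt1, a keratin of the epidermis above that layer, had 248 against a median of 6, while Trp63, a transcription factor of basal cells, had 148 against a median of 151. Of the 10 neuron and neuroendocrine markers, 0 had a mean of at least 1 CPM. The list ranked 4 of 20 in Hi 8 at 0.32, where the others ran from -0.35 to 0.40. By the mean z-score, in which each gene is scaled by its spread over the tumors, Hi 8 ranked 11 for this list. Chga, a protein of secretory granules, had 33 counts in Hi 8 and 0 to 14 in the others. Rbfox3 had 19 against a median of 8, and Stmn2 had 31 against a median of 22. Syp, a synaptic vesicle protein, had 26 against 29 to 84. Of the 9 markers with reads, 4 were above the median of the other tumors in Hi 8 and 2 were below. Snap25, Syt1 and Insm1 were at 0 in Hi 8, as was their median in the others. Btbd17, milk protein genes and keratinocyte keratins were each high in Hi 8. On the milk protein list, Hi 11 was second at 1.75 and ranked 3 for Btbd17. Hi 10, which ranked 2 for Btbd17, was at -1.79 on that list. Hi 3, the highest tumor for the basal and keratinocyte list (3.87), had 36 Btbd17 counts and ranked 17. Lo 3 had 364 Krt5 counts and 33 Btbd17 counts. Of the 10 genes of this list, however, 8 were below the median of the other tumors in Lo 3 and 2 were above, at a list score of 0.14. The part of these cell types and states in the level of Btbd17 was not tested.

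Lo 3 was lowest of the 20 tumors in 4 lists and highest in 0. For fibroblast genes it was at -1.10 where the others ran from -0.80 to 0.83, and all 7 genes were lowest in Lo 3. Col1a1, a chain of type I collagen, had 10184 counts against 10218 to 32219, and Lum, a collagen-binding proteoglycan, had 260 against 357 to 1579. For endothelial genes it was at -0.73 (others -0.42 to 0.63), with 4 of 7 lowest there. For leukocyte genes it was at -0.46 (others -0.34 to 0.60), with 5 of 9 lowest there. For glia and Schwann cell genes it was at -0.32 (others -0.31 to 0.38), with 1 of 9 lowest, close to a tie. By the mean z-score Lo 3 ranked 18 for this list and was lowest in 3 lists in place of 4. The epithelial list was at -0.20 (others -0.32 to 0.34) in Lo 3, which ranked 16 of 20, but this rests on Krt19, a keratin of simple epithelium, with 500 counts and a difference of -1.68. Without Krt19 the other 8 genes were at -0.02 (others -0.35 to 0.36), rank 11. The part of these differences in the level of B630019K06Rik was not tested.

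**Figure D5:**
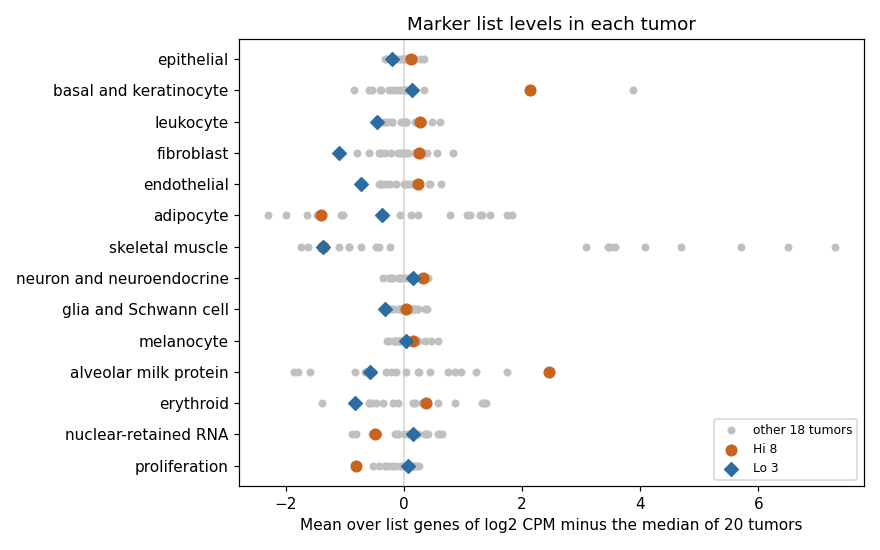
Mean over the genes of each of 14 marker lists of log2 CPM minus the median of the 20 tumors (x axis), with Hi 8 as orange circles, Lo 3 as blue diamonds and the other 18 tumors in grey. Hi 8 is at the right end for alveolar milk protein genes (2.46) and at the left end for proliferation (-0.82), and Lo 3 is at the left end for fibroblast genes (-1.10).

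The other genes of the BTB family were compared with Btbd17. The list held 12 genes named Btbd and Lgals3bp, and all 13 were in the table. Of the 10 with at least 100 counts in their highest tumor, 0 were at least 4-fold over the second-highest tumor (0.434% over all genes). In Hi 8 the differences from the median of the other tumors ran from -0.50 for Btbd8, which was lowest there with 31 counts, to 0.90 for Btbd11, which had 173 counts and ranked 3, leaving aside Btbd16 with 2 counts in Hi 8. Btbd10 (804 counts, difference 0.27) and Btbd19 (271 counts, difference 0.38) were highest in Hi 8. Lgals3bp had 4580 counts in Hi 8, a difference of 0.42 and rank 5 of 20, within a range of 2469 to 10208 over all tumors. In RPKM, Btbd17 at 46.0 was above all 13 in Hi 8, of which Lgals3bp was the highest at 30.9. In the other tumors, the Btbd17 median of 0.253 RPKM was below the medians over all 20 tumors of 10 of the 13 genes, such as Btbd1 at 13.1 RPKM, and above those of 3, namely Btbd11 (0.185), Btbd18 (0.0303) and Btbd16 (listed at 0).

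Lo and Hi are the only groups that the sample names give. By edgeR's quasi-likelihood test with Benjamini-Hochberg adjustment, 0 of 18883 genes passed an adjusted p of 0.05, a background of 0%. At an unadjusted p under 0.05 there were 1028 genes, and DESeq2 called 1 gene, with 1074 at an unadjusted p under 0.05. Btbd17 was at 0.875 ± 0.233 CPM (SD, n = 9) in Lo and 14.4 ± 43.8 CPM (SD, n = 11) in Hi. The log2 fold change of Hi over Lo was 4.04 (SE 1.25, adjusted p = 0.726 by edgeR). Without Hi 8, the Hi mean was 1.21 ± 0.816 CPM (SD, n = 10) and the log2 fold change 0.47 (SE 0.288, adjusted p = 0.999 by edgeR). Hi 8, Hi 10 and Hi 11 lay above the highest Lo tumor, Lo 6 at 1.4 CPM. Hi 5 lay below the lowest Lo tumor, Lo 3 at 0.618 CPM, and the other 7 Hi tumors lay within the range of Lo.

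B630019K06Rik was at 62.5 ± 171 CPM (SD, n = 9) in Lo and 5.81 ± 1.15 CPM (SD, n = 11) in Hi. The log2 fold change of Hi over Lo was -3.44 (SE 0.968, adjusted p = 0.726 by edgeR). Without Lo 3, the Lo mean was 5.41 ± 1.0 CPM (SD, n = 8) and the sign of the fold change turned, to 0.10 (SE 0.129, adjusted p = 0.998 by edgeR). DESeq2, which replaces far outlying counts, used 48 in place of 7627 for Btbd17 and 301 in place of 27722 for B630019K06Rik, and gave 0.45 and 0.10. No difference between Lo and Hi beyond the spread between tumors was detected for either gene. Of the BTB family list, 11 genes could be tested, of which 0 were higher and 0 were lower in Hi, with a median log2 fold change of -0.04 beside 0.00 over all genes.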

How the data were processed

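Small pieces of 20 frozen tumors were sequenced as paired-end reads. The authors trimmed the reads to 100 bases, aligned them to mm10 and deposited raw counts per gene. The submitters' processing notes name TopHat2 2.0.12 and featureCounts 1.4.4. The annotation release and strand setting are not given in the sources used here. All genes and tumors were used, grouped by the Lo or Hi in the sample names.

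CPM used TMM factors (edgeR 4.0.16, R 4.3.3), log2 CPM a prior count of 2, and RPKM the listed gene length. Lo and Hi were compared by the edgeR quasi-likelihood test (robust, filterByExpr, Benjamini-Hochberg at 0.05), with DESeq2 1.42.0 as the alternative. SEs are approximate, from the log2 fold change and its F statistic. The study took 1 tumor from each mouse, and the labels do not say how the samples relate beyond Lo or Hi and a number. The p-values therefore set the difference between Lo and Hi against the spread between tumors. Similarity was searched with blastn 2.17.0. Other values used Python 3.11.15. Scripts were tested on simulated data.

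Neighbors were genes starting within 500 kb. Named genes were the nearest neighbor on each side, the 3 highest and 3 lowest neighbors, the 5 most alike, up to 10 genes standing out per outlying tumor, the BTB list, and markers from lists where the tumor was first or last. The basal and neuronal markers, the neighbors Slc9a3r1 and Tmem104, Epcam, Fbxl17 and the extremes within 5 Mb were chosen after their values were seen. The members and lists were chosen with earlier results of these data known.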

Additional observations from a re-analysis of the deposited data

Results flagged for a closer look

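B630019K06Rik in Lo 3 stood far from the other Lo tumors. Its log2 CPM was 9.02, the nearest Lo tumor was at 2.86, and the gap was 0.887 of the whole range of the 9 Lo tumors, where Dixon's 95% critical value is 0.493. Of 27 values tested in this way in the Lo tumors, 1 was past its critical value, where chance gives about 1 in 20, or 1.35. The gene was selected on this value, so this describes it and does not test it. Btbd17 in Hi 8 was not assessed in this way, because the Hi group has 11 tumors.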

How the results depend on the processing

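Of 117 alternative values, 102 kept their direction and their side of the threshold or stayed within the spread, 13 moved and 2 turned direction. The excess of the outlying tumor lay between 7.22 and 7.49 (Btbd17) and between 6.47 and 6.63 (B630019K06Rik) under other scalings, prior counts and a mean reference. The log2 fold change of B630019K06Rik turned to 0.10 with DESeq2 and to 0.10 without Lo 3, because the outlying count was replaced or left out. Leaving out other tumors gave 3.98 to 4.17 for Btbd17, which fell to 0.47 without Hi 8, and -3.60 to -3.40 for B630019K06Rik. The count of genes differing between Lo and Hi was 1 with DESeq2 and 1 with no filter. Genes standing out in 1 tumor numbered 108 at 3-fold, 25 at 8-fold, 131 with at least 30 counts and 43 with at least 300. In Lo 3 there were 2 at 3-fold and 2 with at least 30 counts, and in Hi 8 there were 3 at 8-fold. By Spearman's rho, 0 of the 5 genes most like Btbd17 over 20 tumors, 2 of 5 over 19 and 0 of 5 for B630019K06Rik over 20 were again in the first 5. The median of the neighbors of B630019K06Rik, which rests on 2 genes, was -0.05 within 1 Mb. No gene had a mean of 1 CPM within 100 kb of it. The values without Hi 10 and without Krt19 were added after seeing the data.

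Lo and Hi share 9 numbers in the sample names. Same-numbered tumors did not deviate together: r ran from -0.414 to 0.264, 2 of 9 were over 0.1, and 1 Lo tumor correlated best with its own number, which does not pair them. A replicate block on these numbers gave log2 fold changes of 0.78 and -0.30 (edgeR adjusted p = 1.0 each), against 4.30 and -3.42 for the same tumors without the block, an alternative chosen after seeing the data, and 0 genes passed in either. Low counts limit the precision of Btbd17 outside Hi 8 and of the next genes on either side of both genes.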
